A study of Mus musculus with 12 samples.

Results

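The comparison asked which microRNAs (miRNAs) differed between rapamycin-sensitive BC3H1 cells given 100 nM rapamycin for 24 h and the same cells given DMSO for 24 h. It used 8 of the 12 arrays of the series, chosen by sample title: 4 labelled RS_Rap and 4 labelled RS_DMSO. BC3H1 is an established mouse line from a brain tumour that has muscle-like properties, and both groups grew in the same medium with serum, with no genetic change stated for either. The other 4 arrays, RR_Rap, hold a resistant derivative of that line kept in 1 µM rapamycin for 6 months. Here they help to estimate the spread. They also enter the mean intensity of each probe and the count of probes above the negative controls. Each array carried the sample labelled with Hy3 and a common RNA pool labelled with Hy5, hybridised to Exiqon LNA capture probes, with no dye swap. The labels give the pool as equal parts of the 3 conditions in one place and as made from 9 samples in another, so its makeup is not settled. The labels do not state whether a group's 4 arrays hold RNA of separate cultures, so the tests speak for variation among these arrays, which could be technical alone.

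miRNAs are short RNAs that guide Argonaute proteins to messenger RNAs, mostly by pairing of the seed near their 5′ end, and lower the output of the targets they bind. Members of a family share a seed and are expected to share many targets. Rapamycin binds FKBP12, and this complex inhibits mTORC1, the kinase complex that couples nutrients and growth factors to translation and cell growth. A total RNA sample and a pool are compared here as a ratio, so a value shows the level of a miRNA in the sample relative to its level in the pool, and not its amount.

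Of the 14 miRNAs that passed the test with intensity-dependent normalization, 10 matched a mature sequence in RefSeq (GRCm38.p6). The sequences below are those whose values carry the results, written 5′ to 3′ with the seed, bases 2 to 8, in capitals. The leading pair are the miRNA with the largest decrease and the miRNA with the largest increase among those 14, the latter beside the miRNA that shares its seed.
miR-706: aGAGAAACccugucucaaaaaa
miR-146a: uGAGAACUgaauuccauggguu
miR-146b: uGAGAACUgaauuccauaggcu
The next group are the other miRNAs that were higher after rapamycin under both scalings, with the miRNAs on the array that share the seed of miR-125b-5p.
miR-26a: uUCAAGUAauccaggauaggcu
miR-125b-5p: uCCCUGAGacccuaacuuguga
miR-125a-5p: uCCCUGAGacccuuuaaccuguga
miR-351: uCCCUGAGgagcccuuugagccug
miR-188-3p: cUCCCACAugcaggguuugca
miR-291b-5p: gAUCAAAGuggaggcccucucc
miR-129-5p: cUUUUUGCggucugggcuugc
The next are miRNAs whose direction turned with the scaling, with mates by seed.
miR-668: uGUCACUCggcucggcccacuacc
miR-214: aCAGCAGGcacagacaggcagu
miR-761: gCAGCAGGgugaaacugacaca
miR-17: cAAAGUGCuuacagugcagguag
miR-20a: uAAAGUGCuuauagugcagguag
miR-20b: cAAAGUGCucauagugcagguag
miR-106a: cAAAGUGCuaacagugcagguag
miR-93: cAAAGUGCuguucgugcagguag
miR-106b: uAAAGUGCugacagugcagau
The last are bright miRNAs that were called only without that normalization, with a dim member of the same family.
let-7a: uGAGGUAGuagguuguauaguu
let-7c: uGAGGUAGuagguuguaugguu
let-7g: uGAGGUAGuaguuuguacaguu
miR-24: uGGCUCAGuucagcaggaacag
Within some of these families the letters differ little. miR-17 and miR-106a differ at 1 base, miR-146a and miR-146b at 2, and the 9 members of the let-7/miR-98 family at 1 to 6, so signal shared between such close probes cannot be told apart. Other mates by seed differ more, miR-214 and miR-761 at 9 of 22 bases and miR-125a-5p and miR-351 at 14 of 24. miR-689, miR-805, miR-320 and miR-669b are named only.

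Positions are those of GRCm38.p6, for the mature sequence unless a hairpin is named. Among the mates by seed, miR-146b lies at chr19:46342790-46342811 (plus strand) within the non-coding gene Gm36493, miR-125a-5p at chr17:17830817-17830840 (plus) within Spaca6, miR-351 at chrX:53053315-53053338 (minus) within the non-coding gene C430049B03Rik, and miR-761 at chr4:109017669-109017690 (plus) within Nrd1. miR-20a lies at chr14:115044183-115044205 (plus) beside miR-17. miR-20b and miR-106a lie at chrX:52742159-52742181 and chrX:52742541-52742563 (minus), and miR-93 and miR-106b at chr5:138165574-138165596 and chr5:138165787-138165807 (minus) within Mcm7, a replication helicase gene. let-7a lies at chr13:48538239-48538260 (minus) in the table used, let-7c at chr15:85706616-85706637 within the non-coding gene Lncppara and at chr16:77599672-77599693 (plus), let-7g at chr9:106178846-106178867 (plus) within Wdr82, and miR-24 at chr8:84208875-84208896 and chr13:63301251-63301272 (plus), the latter within Aopep. Gene spans alone were compared, so exons and introns were not told apart.

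The 417 probes named for mouse miRNAs had 4 spots each. Over all spots of an array, median Hy3 signals were 107 to 144 and median Hy5 signals 70.7 to 100 before background correction. The median local backgrounds were 49 to 57 for Hy3 and 88 to 105 for Hy5. On each of these arrays the median Hy5 signal was below the median Hy5 background. Many spots thus lay near or below background in the pool channel, the denominator of the ratio. Of the 417, 218 were above the highest of 7 negative-control probes in Hy3 on 3 or more of the 4 arrays in some group. RR_Rap counted as a group here, so a probe could pass through it alone. RS_DMSO 3 stood apart from the others. It had 49 flagged mouse spots against 2 to 16 on the other 7 arrays, 134 probes above the negative controls while the other 3 arrays of its group had more, up to 205, and the treated arrays 204 to 228, and correlations of 0.574 to 0.709 across probes with its group, whereas the RS_Rap arrays correlated at 0.863 to 0.928 with each other. The 12 arrays lay on 12 slides scanned on 1 day, the RS_Rap arrays in places 1 to 4 and the RS_DMSO arrays in places 5 to 8, so scan order and treatment cannot be told apart. As a check of the label, 2 of 7 muscle-enriched miRNAs, miR-1 and miR-206, were above the negative controls, and miR-133a, miR-133b, miR-208, miR-486 and miR-499 were not. Of the marker lists of other tissues, 1 of 8 epithelial, 2 of 6 blood-cell, 5 of 11 neuronal and 1 of 4 liver, pancreas and endothelial miRNAs were above them.

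The number and direction of the changes depended on the scaling. With a loess curve fitted within each array, which is meant to level the ratio across brightness, 14 of 417 miRNAs were called at an adjusted p under 0.05 in limma (3.36%), 7 higher (1.68%) and 7 lower (1.68%) after rapamycin. Without that curve, in the same fit, 118 were called (28.3%), 117 higher (28.1%) and 1 lower (0.240%). The median log2 change of all 417 was -0.02 with loess and 0.11 without, and 344 of 417 changes were above 0 without loess against 185 with it. Of the 14, 12 were also called without loess, 8 in the same direction and 4 in the opposite one. Other scalings gave other splits of higher against lower calls. There were 92 and 31 with each array centred on its median, 105 and 6 in the deposited value table, 123 and 5 with centring on the spike-in probes, 11 and 16 with the curve fitted on mouse probes alone, and 14 and 21 with Feature Extraction's processed signals. Fitted on the 8 arrays of sensitive cells alone, with loess, 5 were called, namely miR-706, miR-146a, miR-188-3p, miR-689 and miR-668. An unadjusted p under 0.05 was reached by 98 miRNAs with loess and 143 without.

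Few changes were large with loess, where 3 of the 14 reached 1.5-fold, against 48 of the 118 without it. The arrays of the groups did not overlap for 62 of 417 miRNAs with loess (14.9%), 26 higher (6.24%) and 36 lower (8.63%), and for 120 without (28.8%). The threshold with loess fell between miR-669b (adjusted p = 0.0367) and a group of miRNAs at adjusted p = 0.05005 that included miR-135a, miR-30c, miR-361, miR-196a and miR-675-5p. These 5 are named because they lie at the threshold.

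**Figure D1:**
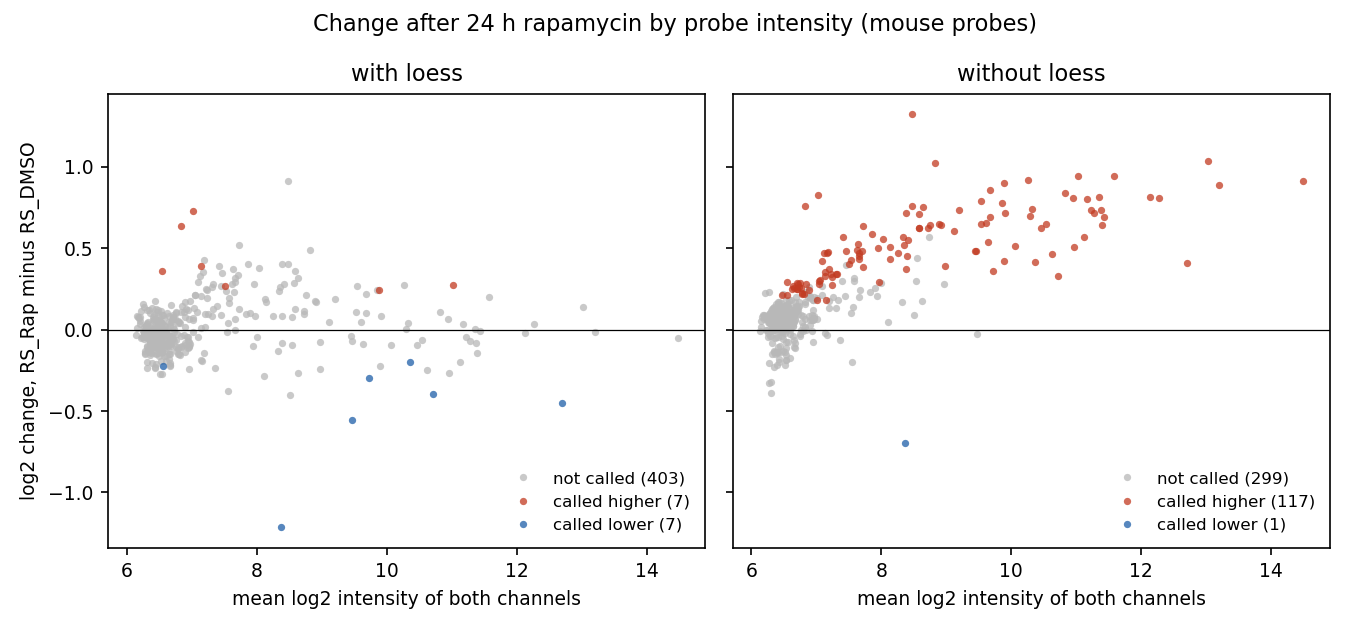
Log2 change (RS_Rap minus RS_DMSO, y axis) against the mean log2 intensity of both channels (x axis) for 417 mouse probes, with loess on the left and without it on the right, each point 1 probe, with called probes in colour. With loess 7 called probes lie above and 7 below 0, and without it 117 lie above and 1 below, with changes that grow towards the bright end.

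The counts also depended on single arrays. Leaving out RS_DMSO 2, 3 or 4 in turn gave 4, 26 and 34 calls with loess. Leaving out RS_Rap 1 or RS_Rap 4 gave 8 and 5, and leaving out the resistant array RR_Rap 1, which enters through the spread alone, gave 9. All 14 calls were kept without RS_DMSO 3 and without RS_DMSO 4, and 4 were kept in each of the 12 omissions (miR-188-3p, miR-689, miR-706 and miR-146a). The other 10 lost their call without RS_DMSO 2 (limma adjusted p = 0.0507 to 0.0672), and 9 of these, miR-805 being the exception, without RS_Rap 4 (adjusted p = 0.0507 to 0.0987). Between 4 and 6 of the 10 were lost without RS_DMSO 1, RS_Rap 1, RS_Rap 2, RS_Rap 3, RR_Rap 1 or RR_Rap 4, at adjusted p of 0.0509 to 0.107. Leaving out RR_Rap 2 ended the call of miR-669b (adjusted p = 0.0550). Without loess the count was 97 to 119 with any of 11 arrays left out and 180 without RS_DMSO 3, which kept all 118.

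miR-706 fell under both scalings. Its mature sequence lies at chr6:120034290-120034311 on the minus strand, within the span of Wnk1, a kinase gene, and its letters resemble a stretch of the rodent B1 repeat. With loess its log2 ratios were 0.33, 0.45, -0.02 and 0.51 in DMSO and -1.02, -0.84, -0.87 and -0.86 after rapamycin. All 4 treated arrays lay below all 4 controls, and the lowest control was RS_DMSO 3. The change was -1.21 ± 0.10 (SE, n = 4 and 4), a 2.32-fold decrease (limma adjusted p = 1.75e-05). Without loess the ratios were 0.16, 0.14, 0.06 and 0.18 against -0.64, -0.48, -0.61 and -0.51, a change of -0.69 ± 0.07 (adjusted p = 4.45e-06). The groups again did not overlap, though the decrease was 1.62-fold, smaller than with loess. The Hy3 signal alone went from 8.82 ± 0.21 to 7.73 ± 0.12 on the log2 scale (SD, n = 4), a difference of -1.09, and the Hy5 signal of the pool differed by -0.39 on the same spots. miR-706 was the only miRNA called lower without loess, and it was kept in 28 of 28 alternative settings and omissions.

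miR-146a, which is induced by NF-κB and represses adaptors of Toll-like receptor signalling, rose. It lies at chr11:43374435-43374456 on the minus strand, within no other RefSeq gene. With loess its log2 ratios were -0.28, 0.12, -0.14 and 0.13 in DMSO and 0.69, 0.59, 0.75 and 0.73 after rapamycin, so every treated array was above every control. The change was 0.73 ± 0.10, 1.66-fold (adjusted p = 0.00247). Without loess the ratios were 0.32, 0.36, 0.45 and 0.18 against 1.22, 1.04, 1.15 and 1.20, a change of 0.82 ± 0.14 and 1.77-fold (adjusted p = 0.000396). The sample channel differed by 0.60 between the groups and the pool channel by -0.22. The call was lost with quantile-normalized Hy3 alone (change 0.75, adjusted p = 0.0548). miR-146b, which has the same seed and differs at 2 bases, stood at 0.27 ± 0.11 with loess (adjusted p = 0.167) and at 0.40 ± 0.18 without (adjusted p = 0.148). On RS_DMSO 3 the ratio of miR-146b without loess was 1.01, above all other 7 arrays, which ran from 0.03 to 0.83. miR-155, another miRNA induced in inflammation, stood at 0.31 ± 0.10 with loess (adjusted p = 0.0847) and rose without it, by 0.76 ± 0.09 (adjusted p = 2.04e-05).

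miR-26a and miR-125b-5p, both bright, rose under both scalings, more without loess. miR-26a, a repressor of the histone methyltransferase Ezh2 in muscle cells, is made from loci at chr9:119031811-119031832 in Ctdspl and chr10:126995543-126995564 in Ctdsp2, both on the plus strand. With loess its log2 ratios were -0.03, -0.03, -0.03 and -0.12 in DMSO and 0.04, 0.25, 0.30 and 0.18 after rapamycin, a change of 0.24 ± 0.05 and 1.18-fold (adjusted p = 0.0310). Without loess they were -0.31, -0.46, -0.32 and -0.51 against 0.35, 0.54, 0.57 and 0.55, a change of 0.90 ± 0.07 and 1.86-fold (adjusted p = 9.04e-07). The groups did not overlap on either scale, and RS_Rap 1 was the lowest treated array on both.

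miR-125b-5p, a homologue of the worm developmental regulator lin-4, comes from chr9:41581940-41581961 in the non-coding gene Mir100hg and from chr16:77646279-77646300, both on the plus strand. With loess its log2 ratios were 0.13, 0.10, -0.13 and 0.08 in DMSO and 0.47, 0.27, 0.31 and 0.24 after rapamycin, a change of 0.28 ± 0.06 and 1.21-fold (adjusted p = 0.0321). The ratios without loess were -0.21, -0.45, -0.11 and -0.37 against 0.79, 0.56, 0.62 and 0.66, a change of 0.94 ± 0.08 and 1.92-fold (adjusted p = 9.31e-07). All treated arrays were above all controls on both scales, and both miRNAs lost the call with loess when Feature Extraction's processed signals (adjusted p = 0.0912 and 0.0815) or an offset of 10 were used (adjusted p = 0.153 and 0.111). miR-125a-5p shares the seed of miR-125b-5p and stood at 0.00 ± 0.05 with loess (adjusted p = 0.975), while it rose by 0.70 ± 0.08 without (adjusted p = 1.13e-05). miR-351, of the same seed, stood at 0.19 ± 0.13 with loess (adjusted p = 0.345) and rose by 0.28 ± 0.08 without (adjusted p = 0.0153).

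The other 4 miRNAs called higher under both scalings were dimmer. miR-291b-5p, of the miR-290 to miR-295 group expressed in embryonic stem cells, lies at chr7:3219494-3219515 on the plus strand. With loess its log2 ratios were -0.62, -0.55, -0.86 and -0.38 in DMSO and 0.21, 0.28, -0.40 and 0.06 after rapamycin, so that RS_Rap 3 lay below RS_DMSO 4 and the groups overlapped. The change was 0.64 ± 0.14, 1.56-fold (adjusted p = 0.0275), and without loess it was 0.76 ± 0.11 (adjusted p = 9.40e-05), where the groups did not overlap. The 4 other measured members of that group stood between -0.12 and -0.03 with loess, none called.

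miR-689 had log2 ratios with loess of -0.39, -0.15, -0.32 and -0.18 in DMSO and 0.13, 0.22, 0.13 and 0.04 after rapamycin, a change of 0.39 ± 0.07 (adjusted p = 0.0143). Without loess RS_DMSO 3, at 0.67, lay above 3 of the treated arrays, and the change was 0.35 ± 0.11 (adjusted p = 0.0273). It lost its call in the deposited value table (adjusted p = 0.195) and kept it in the other 27 alternatives. miR-129-5p, a brain-enriched miRNA at chr2:94241419-94241439 (minus strand) and chr6:29022624-29022644 (plus), had ratios with loess of 0.17, 0.07, -0.04 and 0.18 against 0.44, 0.36, 0.27 and 0.39. The change of 0.27 ± 0.06 (adjusted p = 0.0361) stood beside 0.40 ± 0.13 without loess (adjusted p = 0.0364), where RS_DMSO 3 at 0.83 was above 3 treated arrays. It was the 1 of 11 neuronal miRNAs called under either scaling, against 3.36% of all probes with loess and 28.3% without.

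miR-188-3p, at chrX:7247992-7248012 (minus strand) within Clcn5, a chloride transporter gene, was called higher although both of its signals were lower after rapamycin. With loess its log2 ratios were -0.42, -0.32, -0.23 and -0.33 in DMSO and 0.02, 0.06, 0.09 and -0.04 after rapamycin, with no overlap, a change of 0.36 ± 0.06 (adjusted p = 0.0143). Without loess the change was 0.29 ± 0.08 (adjusted p = 0.0113). Its Hy3 signal differed by -0.43 between the groups and the Hy5 signal of the pool by -0.72, and the probe was not above the negative controls. With quantile-normalized Hy3 alone the change was -0.26 (adjusted p = 0.211), and with the processed signals -0.31 (adjusted p = 0.162). miR-188-5p, the other arm of the same hairpin and named here beside it, stood at 0.11 ± 0.07 with loess (adjusted p = 0.328).

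**Figure D2:**
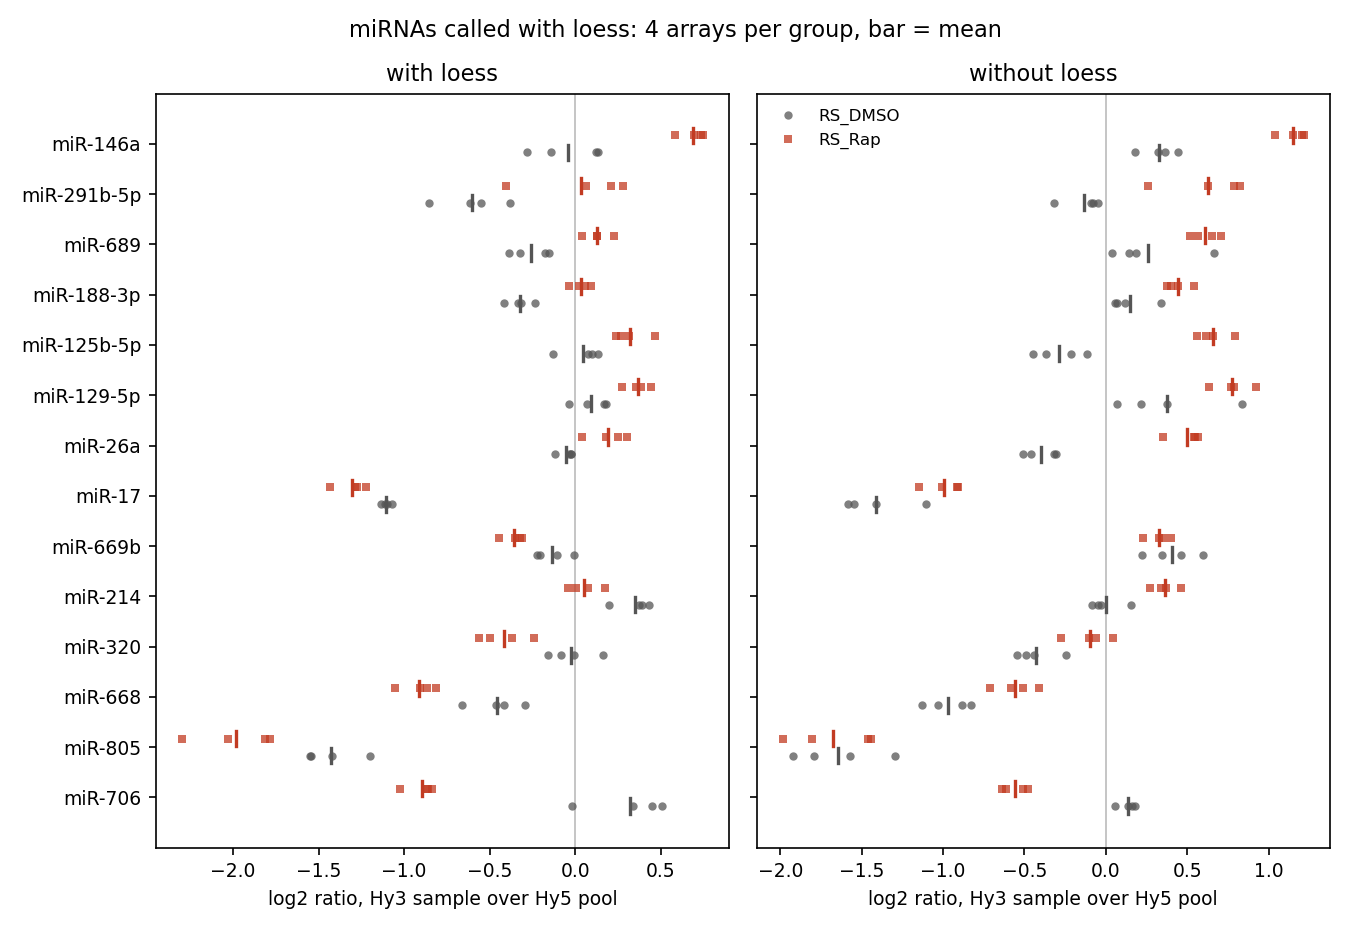
Log2 ratio of sample over pool (x axis) on each of the 4 RS_DMSO arrays (grey circles) and 4 RS_Rap arrays (red squares) for the 14 miRNAs called with loess, with loess on the left and without it on the right, on separate axes, bars marking group means. miR-706 lies lower and miR-146a higher after rapamycin in both panels, while miR-17, miR-214, miR-320 and miR-668 lie lower on the left and higher on the right.

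Of the 7 miRNAs called lower with loess, 4 were called higher without it. They were all in the brightest of 4 bins of probes by mean intensity (104 or 105 probes each). miR-668, from the imprinted region between Dlk1 and Dio3 at chr12:109734774-109734797 (plus strand), had log2 ratios with loess of -0.46, -0.29, -0.42 and -0.66 in DMSO and -1.06, -0.81, -0.91 and -0.87 after rapamycin, a change of -0.45 ± 0.09 (adjusted p = 0.0212). Without loess they were -0.83, -0.88, -1.03 and -1.13 against -0.71, -0.51, -0.59 and -0.41, a change of 0.41 ± 0.09 (adjusted p = 0.00321). The groups did not overlap on either scale, in opposite directions.

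miR-214, which is encoded with miR-199a and lies at chr1:162223438-162223459 (plus strand) within the spans of Dnm3 and Dnm3os, went the same way. Its log2 ratios with loess were 0.43, 0.39, 0.20 and 0.37 in DMSO and -0.04, 0.17, 0.08 and 0.00 after rapamycin, a change of -0.29 ± 0.06 (adjusted p = 0.0217). The ratios without loess were 0.15, -0.05, -0.08 and -0.03 against 0.27, 0.46, 0.34 and 0.37, a change of 0.36 ± 0.08 (adjusted p = 0.00236). The groups were apart on both scales, in opposite directions. miR-761, of the same seed, was the dimmest of the 417 probes in DMSO by Hy3 and stood at 0.08 ± 0.05 with loess (adjusted p = 0.307). In the list of miR-199a and miR-214 products, the probe for miR-199a-3p and miR-199b and that for miR-199a-5p stood at -0.07 ± 0.05 and -0.04 ± 0.08 with loess (neither called) and rose by 0.48 ± 0.09 and 0.48 ± 0.10 without (adjusted p = 0.000874 and 0.00185).

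miR-320, which is made from its hairpin (chr14:70443510-70443591) without the enzyme Drosha, had log2 ratios with loess of -0.16, -0.08, 0.16 and -0.01 in DMSO and -0.37, -0.24, -0.57 and -0.50 after rapamycin. The change was -0.40 ± 0.08 (adjusted p = 0.0212) with loess and 0.33 ± 0.08 (adjusted p = 0.00829) without. The groups did not overlap with loess, and RS_DMSO 3 and RS_Rap 3 overlapped without it, at -0.24 and -0.28.

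miR-17, of the growth-promoting miR-17-92 polycistron at chr14:115043684-115043706 (plus strand), had the smallest change of the 14. Its log2 ratios with loess were -1.11, -1.10, -1.07 and -1.13 in DMSO and -1.23, -1.43, -1.28 and -1.28 after rapamycin, a change of -0.20 ± 0.05 and 1.15-fold (adjusted p = 0.0321). Without loess they were -1.41, -1.58, -1.10 and -1.55 against -0.92, -1.15, -1.01 and -0.91, a change of 0.42 ± 0.10 (adjusted p = 0.00423). Among miRNAs of its seed with loess, miR-20a stood at -0.09 ± 0.10, miR-20b at -0.28 ± 0.18, miR-93 at 0.29 ± 0.12, miR-106a at 0.26 ± 0.17 and miR-106b at 0.27 ± 0.09, none called. Without loess, where 28.1% of all probes were called higher, all but miR-20b were, miR-20a by 0.51 ± 0.15, miR-93 by 0.63 ± 0.06, miR-106a by 0.52 ± 0.10 and miR-106b by 0.79 ± 0.14. So the seed family held values on both sides of 0 with loess and only values above 0 without it.

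miR-805 and miR-669b were called with loess alone. miR-805 had log2 ratios with loess of -1.54, -1.20, -1.42 and -1.55 in DMSO and -1.81, -2.30, -2.03 and -1.78 after rapamycin, a change of -0.55 ± 0.11 (adjusted p = 0.0212). Without loess the change was -0.03 ± 0.14 (adjusted p = 0.926), and Hy3 and Hy5 differed by -0.56 and -0.53, so both channels moved about equally. miR-669b, of the cluster within Sfmbt2 at chr2:10467790-10467886 (hairpin), had a change of -0.22 ± 0.05 with loess and -0.08 ± 0.08 without (adjusted p = 0.0367 and 0.513). It was not above the negative controls, and with quantile-normalized Hy3 alone its change was 0.10 (adjusted p = 0.294).

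The gap between the scalings lay in how the ratio varied with brightness. From the dimmest to the brightest of the 4 intensity bins the median change without loess was 0.05, 0.07, 0.16 and 0.53. Of the 117 miRNAs called higher, 80 were in the brightest bin, 33 in the next, 4 in the one below that and 0 in the dimmest. Of the 42 brightest miRNAs 41 were called, with a median change of 0.71. With loess the 4 medians were -0.03, -0.04, 0.01 and 0.09. They were not level throughout, since 41 probes around a log2 intensity of 7.36 had a median of 0.20 with loess and the 42 brightest one of -0.02. Across the 417 probes the change correlated with mean intensity at r = 0.780 without loess and 0.076 with it, as a description over probes that share the same 8 arrays.

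The trend was seen on every array. The median log2 ratio of the brightest bin without loess was -0.26, -0.38, -0.12 and -0.37 on the DMSO arrays and 0.26, 0.24, 0.25 and 0.37 after rapamycin, whereas in the dimmest bin it was 0.50, 0.49, 0.64 and 0.32 against 0.48, 0.49, 0.57 and 0.50. The groups were apart in the bright bin and overlapped in the dim one. The median change of the brightest bin was 0.51 to 0.58 with any of the 8 arrays left out.

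**Figure D3:**
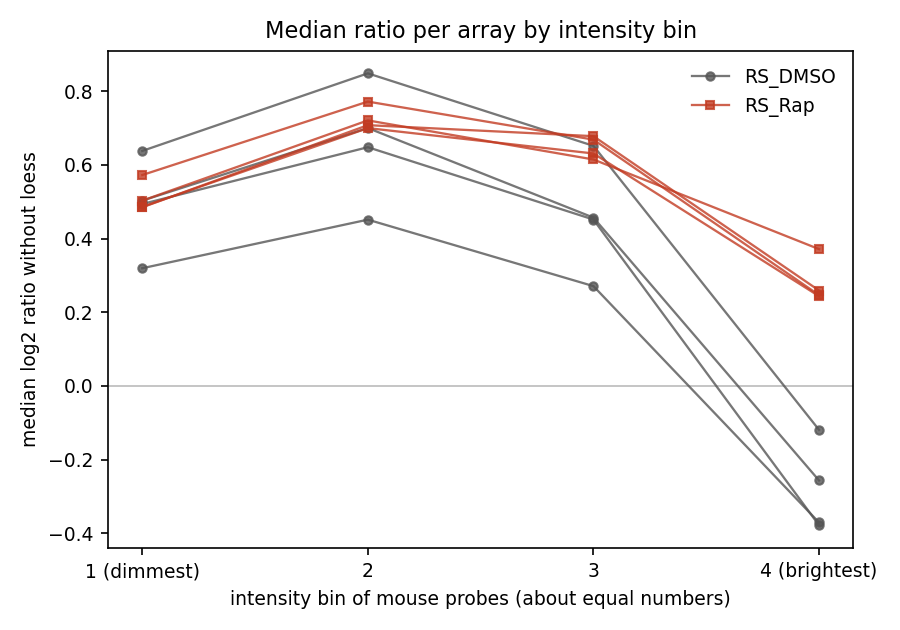
Median log2 ratio without loess (y axis) in each of 4 bins of the 417 mouse probes by mean intensity (x axis), 1 line per array, RS_DMSO in grey and RS_Rap in red. The lines mix in the dimmest bin, and in the brightest the 4 RS_Rap arrays sit at 0.24 to 0.37 and the 4 RS_DMSO arrays at -0.38 to -0.12. The offset of the background correction pulls changes of dim probes towards 0.

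Taken as 1 value per array, the brightest minus the dimmest bin was -0.77 ± 0.08 in DMSO and -0.23 ± 0.08 after rapamycin (SD, n = 4 each). The difference of 0.54 had an exact two-sided permutation p of 0.0286, the smallest that 4 against 4 arrays allow, and 0.0571 after adjustment over 4 such measures. The bins carry the same background offset, which pulls changes of dim probes towards 0. The median log2 ratio of all probes was 0.43 ± 0.15 and 0.56 ± 0.02 (difference 0.13, exact permutation p = 0.143, adjusted 0.143). It overlapped through RS_DMSO 3 at 0.61, and without that array the difference was 0.19 (exact permutation p = 0.0286). With 1 array left out there are fewer splits, 0.0286 is again the smallest p possible, and these p-values were not adjusted. Over all omissions of 1 array the difference ran from 0.070 to 0.19 and the exact permutation p from 0.0286 to 0.257. The RR_Rap arrays, side by side, had a brightest minus dimmest value of -0.81 ± 0.03 (SD, n = 4), a value of another cell line at another dose.

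Both channels moved between the groups. The median log2 Hy5 signal, which holds the same pool on every array, was 6.52 ± 0.03 in DMSO and 6.17 ± 0.07 after rapamycin (SD, n = 4), a difference of -0.35 with no overlap (exact two-sided permutation p = 0.0286, adjusted 0.0571). It was lower for 407 of 417 probes, and the arrays did not overlap for 175 (42.0%), each lower after rapamycin. The 7 negative-control probes were lower as well, by changes of -0.42 to -0.16 in Hy5 and -0.50 to -0.10 in Hy3. The shift of both channels was thus not limited to probes for miRNAs. The median Hy3 signal was 7.09 ± 0.12 and 6.87 ± 0.04, a difference of -0.22 (exact permutation p = 0.0571, adjusted 0.0762). Without RS_DMSO 4 the difference in Hy3 was -0.28 (exact permutation p = 0.0286, unadjusted, the smallest possible with 1 array left out).

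By intensity bin the channels differed. Hy3 changed by medians of -0.19, -0.18, -0.14 and 0.33 from the dimmest to the brightest, and Hy5 by -0.24, -0.28, -0.30 and -0.18. Hy3 on its own did not overlap between the groups for 169 probes (40.5%), 32 higher (7.67%) and 137 lower (32.9%). Of the 117 miRNAs called higher without loess, 92 had a higher Hy3 signal and 107 a lower Hy5 signal after rapamycin. Of all 417 probes, Hy3 was lower for 302 and Hy5 for 407, so a lower Hy5 signal was not particular to the called miRNAs. Since the pool is the same RNA on every array, its differences are of arrays, labelling, hybridisation or scanning, and their part in the ratio was not tested.

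**Figure D4:**
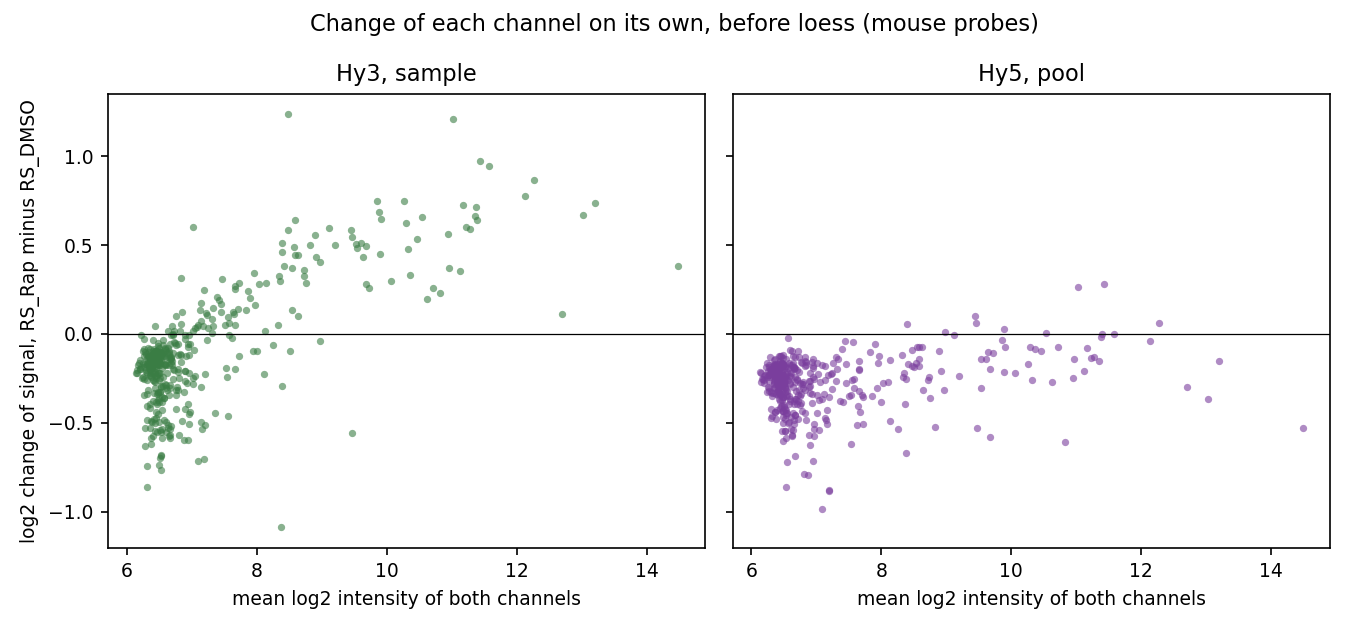
Log2 change of signal (RS_Rap minus RS_DMSO, y axis) of Hy3, the sample, on the left and of Hy5, the pool, on the right, against mean log2 intensity of both channels (x axis), each point 1 of 417 mouse probes before loess. Hy5 lies below 0 for 407 probes, and Hy3 below 0 for 302, with a median of 0.33 in the brightest bin.

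Probes for other RNAs gave a further view of the bright end without loess. The 10 spike-in control probes changed by -0.05 to 0.14, with a median of 0.05. The brightest 2 of them, at a mean log2 intensity of 8.54 and 9.25, changed by 0.04 and 0.14, and the 16 mouse miRNAs within that range of intensity changed by 0.18 to 1.03 with a median of 0.63, 16 of 16 higher. These 2 spike-in probes thus lay below each of the 16 miRNAs. The labels do not say whether or when spike-in RNA was added. Both probes for U6, the spliceosomal small nuclear RNA often used as a reference, changed by 1.11 and 1.03. The 10 probes for small nucleolar RNAs, bright and dim together, changed by -0.13 to 0.99 with a median of 0.17. The brightest 2 of these 10, SNORD2 and SNORD3 at mean log2 intensities of 9.87 and 8.67, changed by 0.83 and 0.99. The 7 negative controls changed by -0.12 to 0.13. The U6 probes changed by more than the median of the 42 brightest miRNAs, 0.71.

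The miRNAs with the largest changes without loess were bright ones. miR-675-5p, which is cut from the imprinted H19 RNA (hairpin chr7:142577064-142577147), led them. Its log2 ratios without loess were -0.02, -0.50, -0.26 and -0.12 in DMSO and 1.67, 1.41, 0.22 and 1.102 after rapamycin, a change of 1.32 ± 0.23 and 2.50-fold (adjusted p = 0.000434). The groups did not overlap, and RS_Rap 3 was far below the other 3 treated arrays. With loess the change was 0.91 ± 0.24, with RS_Rap 3 at 0.00 among the controls, and it missed the threshold (adjusted p = 0.05005).

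RS_Rap 3 was also the lowest treated array for miR-690 and miR-667. miR-690 had ratios without loess of -0.48, -0.59, -0.43 and -0.17 in DMSO and 0.80, 0.79, 0.15 and 0.75 after rapamycin (change 1.04 ± 0.14, adjusted p = 6.00e-05). miR-667, of the Dlk1-Dio3 region, had -0.50, -0.72, -0.55 and -0.64 against 0.55, 0.61, -0.22 and 0.75 (change 1.03 ± 0.18, adjusted p = 0.000552). With loess miR-690 stood at 0.14 ± 0.15 and miR-667 at 0.49 ± 0.17, neither called (adjusted p = 0.591 and 0.112). miR-709, the brightest probe in DMSO, spread widely after rapamycin, at 0.45, -0.08, 1.04 and 0.51 against -0.40, -0.39, -0.43 and -0.50, a change of 0.91 ± 0.16 (adjusted p = 0.000588). With loess it stood at -0.05 ± 0.19 (adjusted p = 0.885), with treated arrays from -0.41 to 0.68.

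miR-24 had tighter groups. Its ratios without loess were -0.30, -0.39, -0.25 and -0.46 in DMSO and 0.75, 0.46, 0.48 and 0.68 after rapamycin, a change of 0.94 ± 0.08 (adjusted p = 9.04e-07), and with loess it stood at 0.20 ± 0.06 (adjusted p = 0.0623), again without overlap. miR-143, a smooth muscle miRNA on chromosome 18, rose without loess by 0.92 ± 0.14 (adjusted p = 0.000188), from ratios of 0.20 to 0.38 to ratios of 0.84 to 1.49. With loess it stood at 0.28 ± 0.14 (adjusted p = 0.261). miR-801 rose without loess by 0.86 ± 0.13 (adjusted p = 0.000127) and stood at 0.22 ± 0.12 with it (adjusted p = 0.275). The 10 largest increases and the decrease of miR-706 were all kept without loess in every alternative and omission run.

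The let-7/miR-98 family, which restrains growth-promoting genes such as Ras and Hmga2, is described here member by member under both scalings. With loess 0 of 9 members were called (3.36% of all probes were), their median change was -0.02 against -0.02 for all probes, and changes ran from -0.15 to 0.38. Without loess 7 of 9 were called higher, against 28.1% of all probes, with a median of 0.63 against 0.11. Of the 9, 8 lay in the brightest bin, where 80 of 104 probes were called higher and the median was 0.53, so the family's share called was near that of the bin. All members are named, 3 of them, let-7b, let-7g and miR-98, after their values were seen.

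let-7a, the second brightest miRNA in DMSO, had log2 ratios with loess of 0.13, 0.24, 0.18 and 0.10 in DMSO and 0.15, 0.11, 0.20 and 0.14 after rapamycin, a change of -0.01 ± 0.04 (adjusted p = 0.839). The ratios without loess were -0.24, -0.38, -0.45 and -0.39 against 0.50, 0.43, 0.55 and 0.61, a change of 0.89 ± 0.07 (adjusted p = 9.04e-07). The groups were mixed on one scale and apart on the other, by nearly 1 log2 unit. let-7c likewise stood at -0.02 ± 0.05 with loess and rose by 0.81 ± 0.06 without, and let-7b at -0.04 ± 0.05 and by 0.74 ± 0.06 (adjusted p = 0.766 and 0.613 with loess, 9.04e-07 and 9.31e-07 without). The dim let-7g, which was not above the negative controls, stood at -0.10 ± 0.07 with loess and 0.07 ± 0.10 without (adjusted p = 0.387 and 0.675). let-7f stood at 0.15 ± 0.08 and 0.30 ± 0.11 (adjusted p = 0.280 and 0.0668).

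Part of the spread in this family came from RS_DMSO 3. let-7e stood there at -1.07 with loess, while the other 3 DMSO arrays ran from -0.01 to 0.04 and the treated arrays from 0.05 to 0.25. Without loess RS_DMSO 3 stood at -0.04, among the other controls. miR-98 had the same pattern, at -1.20 on that array with loess and -0.32 without, so the low values of both on RS_DMSO 3 appeared with the loess curve.

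**Figure D5:**
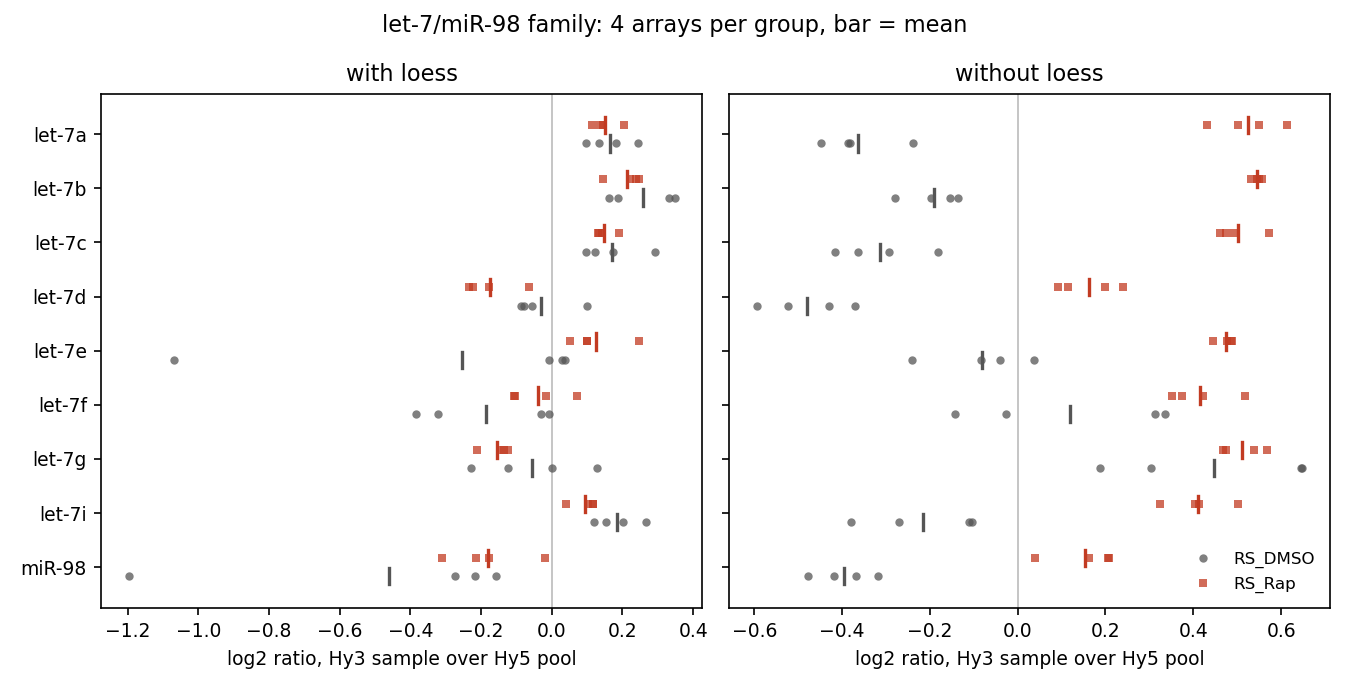
Log2 ratio of sample over pool (x axis) on each of 4 RS_DMSO arrays (grey circles) and 4 RS_Rap arrays (red squares) for the 9 let-7/miR-98 family members, with loess on the left and without it on the right, on separate axes, bars marking group means. With loess most groups mix and RS_DMSO 3 stands low for let-7e (-1.07) and miR-98 (-1.20), and without it the treated arrays lie above the controls for all members but let-7g.

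Other families of bright miRNAs also had more calls without loess. Their counts stand beside 3.36% of all probes called with loess, 28.1% called higher without it, and 80 of 104 called higher without it in the brightest bin, which held 6 of the 7 probes of the miR-23/27/24 list, 5 of the 7 of the miR-30 list and 3 of the 4 of the miR-183 cluster. In the miR-23/27/24 list, made from paired clusters, 0 of 7 were called with loess (median 0.10) and 6 of 7 without (median 0.69), among them miR-27a by 0.65 ± 0.06 and miR-24-1*/24-2* by 0.64 ± 0.09, while miR-27a* stood at 0.01. In the miR-30 list 0 of 7 were called with loess (median 0.21) and 6 of 7 without (median 0.59). There miR-30c stood at 0.24 ± 0.06 with loess (adjusted p = 0.05005), miR-30d at 0.40 ± 0.12, miR-30e at 0.41 ± 0.14 and miR-30a at -0.22 ± 0.12. All 4 members of the sensory-organ cluster of miR-183, miR-96 and miR-182 were called without loess and none with it. They were miR-183* at 0.47 ± 0.10, miR-183 at 0.65 ± 0.10, miR-96 at 0.64 ± 0.09 and miR-182 at 0.65 ± 0.07 without loess, and 0.05 to 0.33 with it.

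Of 6 miR-29 family members, which target collagen mRNAs, 0 were called with loess and 2 without, both higher, near the 28.1% of all probes called higher, with medians of -0.04 and 0.16. miR-29b stood at 0.36 ± 0.14 with loess and rose by 0.71 ± 0.10 without, miR-29c stood at 0.11 ± 0.06 and 0.23 ± 0.10, and miR-29c* at -0.22 ± 0.08 and -0.10 ± 0.13. Of 5 miRNAs linked to stress, 0 were called with loess and 5 without, all higher, where 28.1% of all probes were (medians 0.00 and 0.69). Of the 5, 4 lay in the brightest bin, with 80 of its 104 probes called higher. The hypoxia-induced miR-210 stood at 0.09 ± 0.04 with loess and rose by 0.22 ± 0.06 without, and the bright miR-22 stood at -0.01 ± 0.07 and rose by 0.69 ± 0.07. miR-21, raised in many tumours and named after its values were seen, stood at 0.00 ± 0.07 with loess and rose by 0.82 ± 0.07 without.

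Of the 9 products of miR-17-92, miR-17 was the only one called with loess, where 3.36% of all probes were, and 4 were called higher without it, against 28.1% of all probes. The brightest bin, with 80 of 104 called higher, held 5 of the 9. miR-19b stood at 0.07 ± 0.06 with loess and rose by 0.81 ± 0.07 without. Beside miR-17, miR-20a and miR-19b, miR-17* was called higher without loess, by 0.18 (adjusted p = 0.0382), while miR-18a stood at 0.17, miR-19a at 0.30, miR-92a at 0.09, miR-18a* at 0.08 and miR-19a* at 0.06. All 9 changes were above 0 without loess and 2 of 9 with it.

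Among miRNAs known in other systems to repress Mtor itself, miR-100 stood at 0.35 ± 0.14, miR-99a at 0.18 ± 0.08 and miR-99b at -0.09 ± 0.05 with loess, none called (adjusted p = 0.158, 0.177 and 0.328). The strand partner miR-99b* stood at 0.07 ± 0.07. Without loess miR-100 rose by 0.48 ± 0.09, miR-99b by 0.54 ± 0.08 and miR-99b* by 0.29 ± 0.07 (adjusted p = 0.000899, 0.000141 and 0.00815), while miR-99a stood at 0.20 ± 0.12 (adjusted p = 0.286). For miR-100 RS_DMSO 3 was again low with loess, at -0.99 against -0.47 to -0.23 on the other DMSO arrays. Of the wider list of 6 miRNAs with Mtor as a reported target, 0 were called with loess and 3 without, all higher (medians -0.04 and 0.34), against 3.36% of all probes with loess and 28.1% called higher without. The brightest bin held 3 of the 6.

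Of the 7 muscle-enriched miRNAs 0 were called with loess (median -0.05) and 2 without, both higher (median 0.06), near the 28.1% of all probes called higher. miR-1, which promotes muscle differentiation, had log2 ratios with loess of 0.15, 0.31, -0.80 and 0.37 in DMSO and 0.43, 0.34, 0.38 and 0.37 after rapamycin, and stood at 0.38 ± 0.20 (adjusted p = 0.271). Without loess they were 0.26, 0.23, 0.27 and 0.18 against 0.86, 0.75, 0.69 and 0.75, a change of 0.53 ± 0.08 (adjusted p = 0.000231). RS_DMSO 3 was the low array on the one scale and the highest control on the other. miR-206, which shares the seed of miR-1, stood at 0.34 ± 0.19 with loess and rose by 0.48 ± 0.12 without (adjusted p = 0.309 and 0.00573), and RS_DMSO 3 was at -0.48 with loess. The 5 that were not above the negative controls stood at -0.03 for miR-133a, -0.05 for miR-133b, -0.24 for miR-208, -0.21 for miR-486 and -0.09 for miR-499 with loess, and from -0.08 to 0.06 without.

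Lists of mostly dim miRNAs had few calls, beside 3.36% of all probes called with loess and 28.3% without. Of 8 epithelial and 6 blood-cell miRNAs 0 were called with or without loess. Their medians were -0.09 and -0.05 with loess, against -0.02 for all probes, and 0.01 and 0.04 without it, against 0.11. None of the 8 epithelial changes was above 0 with loess, where 185 of all 417 probes were. Of these 8, 1 was above the negative controls and none lay in the brightest bin. The lowest adjusted p with loess in either list was 0.0607, for miR-141 at -0.21 ± 0.06 and miR-142-3p at -0.15 ± 0.04. Of 46 measured miRNAs of the Dlk1-Dio3 region 1 was called with loess, miR-668, and 7 without, all higher, with medians of -0.02 and 0.09, close to those of all probes. Of 58 star strands, the passenger arms of their hairpins, 0 were called with loess and 8 without, with medians of -0.04 and 0.09. Of the 42 miRNAs of the miR-680 to miR-721 series, 2 were called with loess, miR-706 and miR-689, and 11 without.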

How the data were processed

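The deposited intensity values are not normalized: for each spot and channel, a mean signal and a local background median. Per the submitters' processing notes, the scanner software was Agilent Feature Extraction, version 9.5.3.1. The log2 values of the deposited value table are the authors' own, of unstated scale. Set against ratios computed here without loess they had r of 0.975 to 0.998, slopes of 0.914 to 1.13 and medians of 0.393 to 0.604 per array, so their direction is sample over pool, with no centring to be seen, and no source used here tells how spots were summarised.

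The mean signals were background-corrected by normexp with an offset of 50 (limma 3.58.1 in R 4.3.3), which pulls changes of dim probes towards 0. Ratios were taken with within-array loess (control spots at weight 0) or without, and the unflagged spots of a probe were averaged. Each was fitted to the 12 arrays (lmFit, eBayes), and p-values were adjusted over the 417 probes by Benjamini-Hochberg, with 0.05 as threshold. A ± beside a change is the fit's standard error. The 4 measures that give 1 value for each array used exact two-sided permutation tests (70 splits, fewer with 1 array left out). Their p-values were adjusted over these 4 in the main run. Precision is limited by how few arrays there are. The fit was also run on simulated data that had no intensity trend, so that run does not speak for the choice of scaling.

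Probe names are those of the array and were matched to RefSeq arms by hand. Named are all miRNAs called with loess, those called in both fits, the 10 highest and lowest called without loess whose arrays do not overlap, seed mates, the 5 brightest, all members of the miR-17~92, miR-99/100 and muscle lists, and, from any other list described, up to 4 members ranked by p. Members and lists were chosen with earlier results of these data known. Alternatives covered scaling, background, signal column, filter, array weights, replicate block and omission of single arrays. Replicate numbers were not taken as pairs: the deviations of same-numbered arrays from their group means correlated at -0.114 to 0.045.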

Additional observations from a re-analysis of the deposited data

Results flagged for a closer look

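Among 298 groups of 4 arrays tested over the named miRNAs, 17 held 1 array far from the other 3, where chance flags about 1 in 20. On RS_DMSO 3 with loess, let-7e stood at -1.07 (the others at -0.01 to 0.04), miR-15a at 0.41 (-0.26 to -0.20), miR-155 at -0.19 (0.25 to 0.33), miR-222 at 0.035 (0.46 to 0.50) and let-7d at 0.10 (-0.09 to -0.06). On RS_DMSO 1 with loess, miR-451 stood at -0.61 (0.05 to 0.07), miR-29c at -0.27 (-0.00 to 0.03) and miR-99b* at -0.43 (-0.23 to -0.20). On RS_DMSO 4 with loess, miR-19a stood at -0.79 (-0.47 to -0.44) and miR-26a at -0.12 (-0.03 on each of the others).

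After rapamycin with loess, miR-706 stood at -1.02 on RS_Rap 1 (-0.87 to -0.84), miR-130b at -0.72 on RS_Rap 1 (-0.64 to -0.62), miR-494 at -0.25 on RS_Rap 2 (-0.75 to -0.70), miR-20b* at 0.10 on RS_Rap 2 (-0.03 to -0.01) and miR-142-3p at 0.44 on RS_Rap 3 (0.35 to 0.36). Without loess, miR-690 stood at 0.15 on RS_Rap 3 (0.75 to 0.80) and miR-26a at 0.35 on RS_Rap 1 (0.54 to 0.57). RS_DMSO 3 held 5 of the 17, and miR-26a was far from its group on a DMSO array with loess and on a treated array without.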

How the results depend on the processing

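With loess 14 miRNAs were called. The count was 118 with no loess, 123 with centring on the array median, 27 with the curve fitted on mouse probes, 35 with the processed signals, 111 in the value table, 2 with quantile-normalized Hy3 alone, 49 with no background subtraction, 128 with spike-in centring and 5 on 8 arrays only. It was 12 to 21 with median pixels, an offset of 10, Aquantile, probes above the negative controls, array weights, an unmoderated test and the replicate block (20), and 4 to 34 with 1 array left out. All 14 were kept with the replicate block, and 107 of the 118 called without loess, where it gave 107. Same-numbered arrays did not deviate together, which does not settle whether the samples were paired. Without loess the count was 179 with array weights, which kept all 118, 107 to 156 under the other settings and 97 to 180 with 1 array left out. With no background subtraction it was 114, of which 105 were higher and 9 lower. The median change of all probes without loess also depended on the background step. It was 0.11 in the main run, 0.33 with an offset of 10 and 0.03 with no background subtraction.

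Directions turned for 6 of the 14. With no loess, array-median centring, the value table and spike-in centring, miR-320 stood at 0.33, 0.20, 0.30 and 0.31, miR-214 at 0.36, 0.23, 0.32 and 0.34, miR-668 at 0.41, 0.28, 0.41 and 0.39, and those of miR-17 were 0.42, 0.28, 0.41 and 0.39. Using quantile-normalized Hy3 alone, miR-17 stood at 0.026, miR-669b at 0.10 and miR-188-3p at -0.26, and the last at -0.31 with the processed signals. The cause was not tested. miR-706 kept its call in 28 of 28 settings and omissions, miR-146a and miR-689 in 27 of 28, miR-188-3p in 25 of 27, and the other 10 in 11 to 21.

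Among probes above the negative controls the difference in median ratio per array was 0.36 (exact permutation p = 0.0286). That filter reads Hy3, the numerator of the ratio, and a probe could pass through the treated arrays alone. The filter can thus raise this difference, and its p gives no support for a shift. With median pixels the difference in median Hy3 was -0.22 (exact permutation p = 0.0286). With 1 array left out the differences were 0.070 to 0.19 for the median ratio, -0.28 to -0.18 for Hy3, -0.39 to -0.34 for Hy5 and 0.50 to 0.57 for the brightest minus dimmest intensity bin. The exact permutation p was up to 0.257 for the median ratio and up to 0.0857 for Hy3, and 0.0286 throughout for the other measures. These p-values are unadjusted and rest on fewer splits than the main tests, and 0.0286 is the smallest they allow. Slide or scan as a block was not run, since each array has its own slide and each group its own unbroken run of scans. Probes not above the negative controls have little signal, so a change there could have been missed, and shared signal among near-identical family members limits which member a change belongs to.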
